A study of Mus musculus with 12 samples.

Results

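The anterior and the posterior palate of control mouse embryos were compared by RNA-seq, across all gene symbols of the count tables. The groups compared are 6 of the 12 libraries of the study: 3 of anterior palate and 3 of posterior palate, all from C57BL/6 embryos at E13.5, before the shelves rise, that served as controls. The other 6 libraries are the same 2 regions of tamoxifen-treated mice of that strain and age, and they entered the same fit, where they helped to set the filter, the scaling and the estimate of spread. What the controls received, the dose and time of tamoxifen, and whether a library holds 1 embryo or a pool were not stated in the labels. Nothing in the labels says that replicates came from separate animals or litters, so each p-value measures only how far these libraries spread, which may be technical.

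The secondary palate forms from a pair of shelves that grow from the maxillary processes, rise above the tongue and fuse at the midline. Each shelf has a core of mesenchyme, derived mostly from cranial neural crest, under a covering of oral and nasal epithelium. The anterior part becomes bony hard palate and lies close to the nasal cavity and the tooth-bearing arch, whereas the posterior part forms the rest of the hard palate and the muscular soft palate, and the parts are known to use different transcription factors and growth factor loops.

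Total counts lay between 39.4 M and 48.8 M in the 6 control libraries and reached 73.0 M over all 12. Of 24391 symbols, 15958 passed the filter on low counts and were tested. The leading principal component of the 6 controls held 69.7% of the variance and separated the regions, with anterior scores of -52.6 to -39.6 and posterior scores of 42.3 to 49.4. The next held 9.92% and set anterior replicate 1 (29.6) apart from anterior replicate 3 (-29.5). The median gene varied little between replicates, with an SD of log2 CPM (library-scaled counts) of 0.109 among anterior and 0.0811 among posterior libraries. Markers of palatal mesenchyme were present in each control library: Osr2 at 218, 218 and 236 CPM anteriorly and 151, 148 and 157 posteriorly, Prrx1 at 386 CPM or more, Twist1 at 552 or more, Pdgfra at 242 or more and Pax9 at 71.5 or more. Immediate early genes, which respond to stimuli within minutes, differed between libraries of a region. Fos was at 4.21, 4.91 and 37.4 CPM in the anterior and 12.01, 129 and 184 CPM in the posterior libraries. Its values overlapped between the regions, with posterior replicate 1 far below the other posterior libraries, and it gave no call. Of 25 immediate early and heat shock genes, 4 were called higher posteriorly and 1 anteriorly, and without posterior replicate 1 these counts were 9 and 0. Over all genes tested, with all libraries in the fit, 13.1% were called higher posteriorly and 10.2% anteriorly (calls are defined below).

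The difference between the regions was broad, and for most called genes it was under 2-fold. With edgeR's quasi-likelihood test and a Benjamini-Hochberg adjusted p under 0.05 (a call, from here on), 3717 of 15958 genes differed, or 23.3% of those tested. Of these, 1634 (10.2% of genes tested) were higher in the anterior and 2083 (13.1%) in the posterior palate. The median fold among the called genes was 1.59 for the anterior and 1.53 for the posterior direction. More than 2-fold differences numbered 498 anteriorly and 683 posteriorly, and more than 8-fold ones 65 and 168. The 3 anterior and 3 posterior values did not overlap for 6573 genes (41.2%), among them 3662 of the 3717 called. With a trend of the counts with transcript length and GC content removed, 2338 genes were higher anteriorly and 1958 posteriorly, so the share of calls on the anterior side went from 44.0% to 54.4%, and 3106 of the 3717 calls remained in the same direction. Without posterior replicate 2, 1010 genes were higher anteriorly. With the 6 control libraries alone in the fit 3771 genes were called, and without anterior tamoxifen replicate 2, 4342. In the plot of fold change against level, more genes lie beyond 8-fold on the posterior side.

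**Figure D1:**
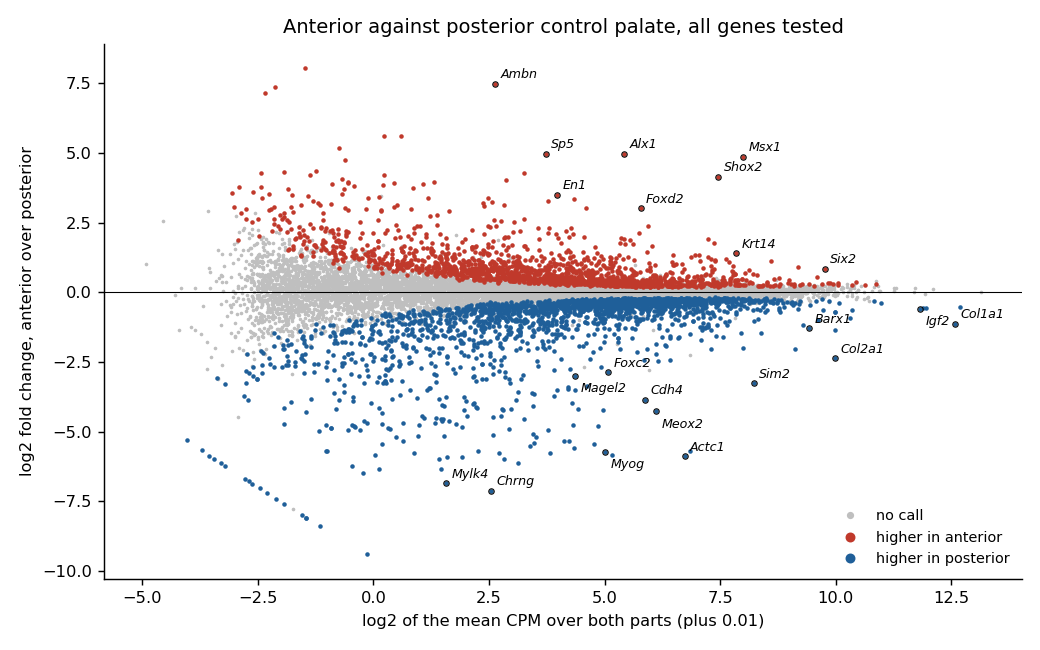
Each point is 1 of 15958 genes tested in the control palate, with its mean level on the horizontal axis (log2 CPM) and its log2 fold change, anterior over posterior, on the vertical axis. Coloured points are the 1634 genes called higher in the anterior and the 2083 called higher in the posterior palate. Calls at more than 8-fold number 65 on the anterior and 168 on the posterior side.

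The 4 genes used to mark the regions separated all 6 libraries. Shox2, a homeobox gene of the anterior shelf, stood at 304, 359.7 and 331 CPM in the anterior and 19.8, 16.5 and 19.7 CPM in the posterior libraries. Msx1, a homeobox gene required for palate and tooth development, stood at 399, 464 and 615 against 20.4, 9.72 and 20.2 CPM. Neither gene overlapped between the regions, and each anterior library was far above each posterior one. Meox2, a homeobox gene of the posterior mesenchyme, stood at 9.51, 5.54 and 5.34 CPM anteriorly and 121, 139 and 134 CPM posteriorly. Tbx22, the T-box gene mutated in X-linked cleft palate, stood at 4.71, 4.01 and 2.65 against 22.8, 29.9 and 25.8 CPM. Both were low in each anterior library and high in each posterior one.

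Not every gene followed the region under which it was listed. Of 13 genes listed as anterior, 9 were higher anteriorly, where 10.2% of all genes tested were, and 1 was higher posteriorly, where 13.1% were. The latter was Efnb2, an ephrin ligand, with 82.1, 81.4 and 70.1 CPM in the anterior and 181, 199 and 213 CPM in the posterior libraries (log2 fold change -1.34, SE 0.09, adjusted p = 9.6e-09). Of 12 genes listed as posterior, 8 were higher posteriorly and 3 anteriorly: the LIM homeobox genes Lhx8 (2.29-fold), Lhx6 (1.65-fold) and Isl1 (3.11-fold). Lhx8 was at 223, 203 and 231 CPM anteriorly and at 93.5, 94.8 and 98.9 CPM posteriorly, without overlap. Both lists were drawn up with earlier results of these libraries known, so their counts describe the members and are no separate evidence of direction. The same holds for the other lists below, whose counts are to be read beside the shares over all genes tested, 10.2% and 13.1%.

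Among the cell types that a dissected shelf can hold, skeletal muscle had the largest median difference between the regions of the lists examined. Of 27 muscle genes tested, 26 were higher posteriorly, 0 anteriorly and 1 gave no call. Their median log2 fold change was -4.81, against 0.02 over all genes tested. Their summed level was 25.5 to 54.4 CPM in the anterior and 1060 to 1221 CPM in the posterior libraries. In bulk tissue, fewer cells of a type and less RNA per cell cannot be told apart, and this holds for each result below.

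The muscle genes covered the steps from commitment to contraction. Myog, the factor that drives myoblast differentiation, stood at 1.68, 0.774 and 1.12 CPM anteriorly and 63.5, 62.8 and 62.7 CPM posteriorly (log2 fold change -5.72, SE 0.22, adjusted p = 6.3e-10). Tmem8c, which encodes the myoblast fusion protein myomaker, stood at 0.545, 0.145 and 0.0234 against 13.9, 12.3 and 12.2 CPM. The embryonic acetylcholine receptor subunit gene Chrng was at 0.198, 0.0484 and 0 CPM anteriorly and 12.5, 10.2 and 11.9 CPM posteriorly. These genes were near the floor in each anterior library, and the posterior libraries lay close together. The cardiac actin gene Actc1, also used by embryonic skeletal muscle, was at 7.55, 2.15 and 0.984 against 210.1, 213 and 202 CPM, and the embryonic myosin gene Myh3 at 8.45, 3.77 and 1.05 against 249, 226 and 199 CPM. Anterior replicate 1 held the most of both among the anterior libraries. Actin and myosin genes resemble each other closely, so reads could be divided wrongly between Actc1 and Acta1, or between Myh3 and Myh8.

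The promoters of 4 of these genes hold motifs known from muscle genes. RefSeq start sites (GRCm38.p6) were matched for 22 of the 26 muscle genes higher posteriorly, and 3 motifs were searched on both strands of the 250 bases before each start site. CAGCTG, the E-box form bound by Myod1 and Myog, was found in 8 of the 22 genes (36.4%) and in 14.7% of 27025 RefSeq genes. The MEF2 site was found in 4 of 22 (18.2%) against 3.42%, and the CArG box, to which serum response factor binds, in 2 of 22 (9.09%) against 1.62%. Most of the 22 lacked any given motif, and the window of Myog held none of the 3. A match is a description of the letters in this window, not a site shown to be used. The sequences are shown because these members hold the motifs, and capitals mark CAGCTG in Acta1, Tnni1 and Klhl41, the CArG box in Acta1 and Actc1, and the MEF2 site in Klhl41. They lie at chr8:123894776-123895025 (minus strand) for Acta1, chr2:114052876-114053125 (minus) for Actc1, chr1:135799171-135799420 (plus, the upstream of its listed start sites) for Tnni1 and chr2:69669870-69670119 (plus) for Klhl41.
Acta1: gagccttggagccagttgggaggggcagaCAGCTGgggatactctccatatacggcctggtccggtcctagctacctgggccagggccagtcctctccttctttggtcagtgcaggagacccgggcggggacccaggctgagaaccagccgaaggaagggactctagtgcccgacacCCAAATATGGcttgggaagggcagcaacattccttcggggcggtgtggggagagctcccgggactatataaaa
Actc1: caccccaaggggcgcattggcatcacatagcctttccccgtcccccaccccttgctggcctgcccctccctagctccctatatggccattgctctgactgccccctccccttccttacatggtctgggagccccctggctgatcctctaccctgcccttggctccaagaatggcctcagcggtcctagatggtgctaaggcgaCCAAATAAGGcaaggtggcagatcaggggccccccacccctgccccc
Tnni1: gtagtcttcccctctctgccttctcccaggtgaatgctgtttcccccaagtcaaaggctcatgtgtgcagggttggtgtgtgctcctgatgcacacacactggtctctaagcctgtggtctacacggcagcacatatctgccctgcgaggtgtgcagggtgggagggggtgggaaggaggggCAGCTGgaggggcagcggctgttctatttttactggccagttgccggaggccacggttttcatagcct
Klhl41: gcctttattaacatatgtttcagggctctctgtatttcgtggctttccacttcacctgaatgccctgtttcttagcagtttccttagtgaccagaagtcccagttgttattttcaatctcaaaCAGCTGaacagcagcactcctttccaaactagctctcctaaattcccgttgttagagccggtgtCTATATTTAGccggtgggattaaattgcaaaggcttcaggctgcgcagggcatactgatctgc

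Each of these 4 genes was higher posteriorly. Tnni1, the slow troponin I gene, stood at 1.16, 0.846 and 0.445 CPM anteriorly and 44.05, 35.9 and 38.3 CPM posteriorly, and Klhl41, which encodes a sarcomere-associated adaptor, at 0.347, 0.701 and 0.703 against 13.2, 13.1 and 12.2 CPM. Acta1, skeletal actin, was at 2.33, 0.991 and 0.421 against 78.5, 63.6 and 67.1 CPM, with an adjusted p of 0.0043 by edgeR. Fgfr4, a growth factor receptor of myoblasts, was 5.47-fold and Msc, which encodes the head muscle factor musculin, 17.4-fold higher posteriorly. Msc stood at 0.718, 0.435 and 0.351 CPM anteriorly and 9.57, 7.38 and 9.20 CPM posteriorly.

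Cartilage genes were also higher posteriorly, though present in both regions. Of 18 tested, 13 were higher posteriorly and 0 anteriorly, with a median log2 fold change of -1.66, and their summed level was 938 to 995 CPM anteriorly and 2983 to 3255 CPM posteriorly. Matn1, a cartilage matrilin, stood at 0.619, 0.629 and 0.304 against 11.2, 23.5 and 30.6 CPM. Its posterior values differed by more than 2-fold among themselves, with replicate 1 the lowest, and still lay far above each anterior one. Col11a1, a fibril collagen of cartilage and other tissues, stood at 135, 137 and 122 against 345, 368 and 364 CPM. Sox5, a factor of chondrocyte differentiation, was at a mean of 13.1 ± 1.26 CPM anteriorly and 14.9 ± 1.60 CPM posteriorly (SD, n = 3) and gave no call. Of 10 tendon genes, 5 were higher posteriorly and 3 anteriorly: the matrix genes Thbs4 and Kera were 18.4-fold and 18.3-fold higher posteriorly, whereas Tnmd, which encodes tenomodulin, was 5.31-fold higher anteriorly. Without anterior replicate 2, posterior replicate 2 or posterior replicate 3, 1 tendon gene was called on the anterior side. Of 12 osteoblast genes, 3 were higher anteriorly and 2 posteriorly, and the posterior count fell to 0 without anterior replicate 2 or 3 or without posterior replicate 1 or 2. Among these genes, Dlx5 was 1.96-fold higher anteriorly, and Runx2, the master factor of bone formation, at 185, 186 and 178 against 140.5, 154 and 137 CPM, gave no call (adjusted p = 0.065) but was called higher anteriorly by DESeq2, the 6 controls alone and removal of the length and GC trend.

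Epithelial genes were called mostly in the anterior direction. Of 31 genes of oral epithelium and periderm, 17 were higher anteriorly and 1 posteriorly, with a median log2 fold change of 0.47 and sums of 1780 to 2231 against 1156 to 1274 CPM. Krt5, a keratin of basal epithelial cells, stood at 200.3, 256 and 303 CPM anteriorly and 70.7, 69.3 and 83.1 CPM posteriorly, and Trp63, the factor that sets up stratified epithelium, at 48.03, 57.9 and 48.6 against 25.3, 27.1 and 30.7 CPM. Neither overlapped between the regions. Cdh1, epithelial cadherin, stood at 79.7, 95.05 and 71.2 CPM anteriorly and 63.8, 75.1 and 72.97 CPM posteriorly and gave no call (adjusted p = 0.32). Of 16 genes of the tooth germ, 9 were higher anteriorly and 1 posteriorly (median 1.06). Edar, the ectodysplasin receptor, was 2.71-fold and the placode gene Foxi3 14.8-fold higher anteriorly. Ambn, which encodes the enamel protein ameloblastin, was at 14.00, 11.5 and 11.2 CPM anteriorly and 0.0421, 0.0955 and 0.0622 CPM posteriorly. Its log2 fold change of 7.49 was the largest on the anterior side among called genes with a mean of at least 5 CPM.

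Markers of endothelium, macrophages and blood were called at shares close to or below those over all genes tested, 10.2% higher anteriorly and 13.1% posteriorly. Of 20 endothelial genes, 2 were higher anteriorly and 2 posteriorly, and their sum was 828 to 922 against 867 to 937 CPM. The lymphatic receptor gene Flt4 was 1.51-fold higher posteriorly, and Cdh5, the cadherin of endothelium, at 137, 142 and 133 CPM anteriorly and 157, 159.9 and 145 CPM posteriorly, gave no call (adjusted p = 0.13). Of 18 macrophage and leukocyte genes, 2 were higher anteriorly and 1 posteriorly, and of 8 erythroid genes 1 and 0. These counts moved with single libraries: 1 endothelial gene was higher anteriorly without any one library other than posterior control replicate 1, and 3 without that one. For macrophages the anterior count was 1 without replicate 2 or 3 of either control region, and the posterior count 2 without anterior tamoxifen replicate 2. Smooth muscle and pericyte genes were called more often, with 5 higher anteriorly and 2 posteriorly of 12. Leaving out 1 library gave 2 to 5 and 2 to 3 of them. Their sum was 814 to 848 CPM anteriorly and 892 to 922 CPM posteriorly. Of 22 neuronal genes 2 were higher anteriorly and 8 posteriorly (5 without anterior replicate 3), with Nefm, a neurofilament gene, at 5.45, 4.71 and 5.36 against 20.7, 22.8 and 19.9 CPM. Of 14 glial genes 3 were higher anteriorly (1 without posterior replicate 2 or 3) and 5 posteriorly. Sox10, the defining factor of glia from the neural crest, was at a mean of 28.4 ± 0.931 CPM anteriorly and 24.1 ± 2.45 CPM posteriorly (SD, n = 3) and gave no call (adjusted p = 0.057). The plot of marker sums places these lists side by side.

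**Figure D2:**
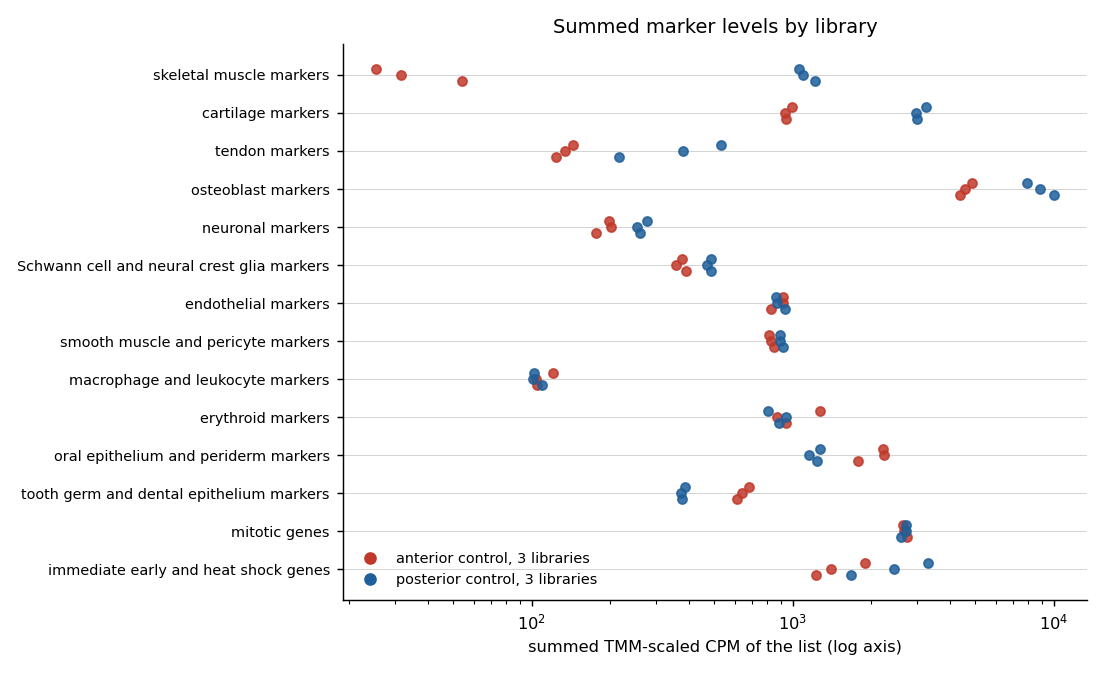
Summed TMM-scaled CPM of each marker list (horizontal log axis) in the 3 anterior and 3 posterior control libraries, 1 point per library. Skeletal muscle lies at 25.5 to 54.4 CPM in the anterior and 1060 to 1221 CPM in the posterior libraries, epithelium at 1780 to 2231 against 1156 to 1274 CPM, and the endothelial and mitotic sums overlap.

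Transcription factors of the homeobox class divided almost evenly between the regions. Outside the Hox clusters, 103 were tested, of which 32 were higher anteriorly, 28 posteriorly and 43 gave no call. Of the calls, 44 exceeded 2-fold. The Hox genes, which pattern the trunk and are silent in the neural crest of the upper jaw, were low: 5 of 39 passed the filter, and the summed level of all of them was 3.20 to 4.36 CPM anteriorly and 2.03 to 2.96 CPM posteriorly. Hoxd8 was called higher anteriorly (1.81, 2.01 and 2.39 against 1.22, 1.19 and 0.622 CPM), and its call was lost without replicate 3 of either region.

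On the anterior side, Alx1, a factor of frontonasal neural crest mutated in facial clefting, stood at 82.2, 79.2 and 86.6 CPM against 3.15, 2.82 and 1.91 CPM posteriorly (log2 fold change 4.98, SE 0.28, adjusted p = 1.7e-07). En1, best known from the midbrain and the limb, was at 27.7, 27.7 and 31.03 against 3.09, 2.24 and 2.26 CPM. Irx1, of the Iroquois family, was at 35.05, 46.9 and 47.6 against 5.62, 4.11 and 5.95 CPM, and its neighbour Irx2 was 8.83-fold higher. For each of these the regions were far apart and the replicates close. Six3 and Pax3 were 16.4-fold and 10.5-fold higher anteriorly. Six3os1 was 8.57-fold higher, but it lies beside Six3 on the other strand, and without a stated strand setting their reads cannot be told apart. The same holds for Msx1os (19.4-fold) and Msx1. Six2, a factor of mesenchymal progenitors, stood at 1006, 1098 and 1239 against 676, 544 and 631 CPM, a 1.81-fold difference.

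On the posterior side, Pitx3, a muscle and lens factor, was at 0.669, 0 and 0 CPM anteriorly and 15.3, 11.3 and 15.2 CPM posteriorly. Nkx3-2, a factor of the jaw joint and of cartilage, was at 0.471, 0.0484 and 0.0234 against 10.4, 8.74 and 8.99 CPM, and Emx2 at 0.520, 0.411 and 0.679 against 7.49, 7.30 and 6.94 CPM. All 3 were near the floor anteriorly. Msx2, the close relative of Msx1, stood at 9.56, 8.12 and 11.03 CPM anteriorly and 38.2, 35.98 and 36.1 CPM posteriorly, the reverse of Msx1. Barx1, a factor of the posterior shelf and of molar teeth, was 2.45-fold higher posteriorly, and its relative Barx2 was at 4.04, 4.84 and 4.47 against 15.9, 14.7 and 16.3 CPM.

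**Figure D3:**
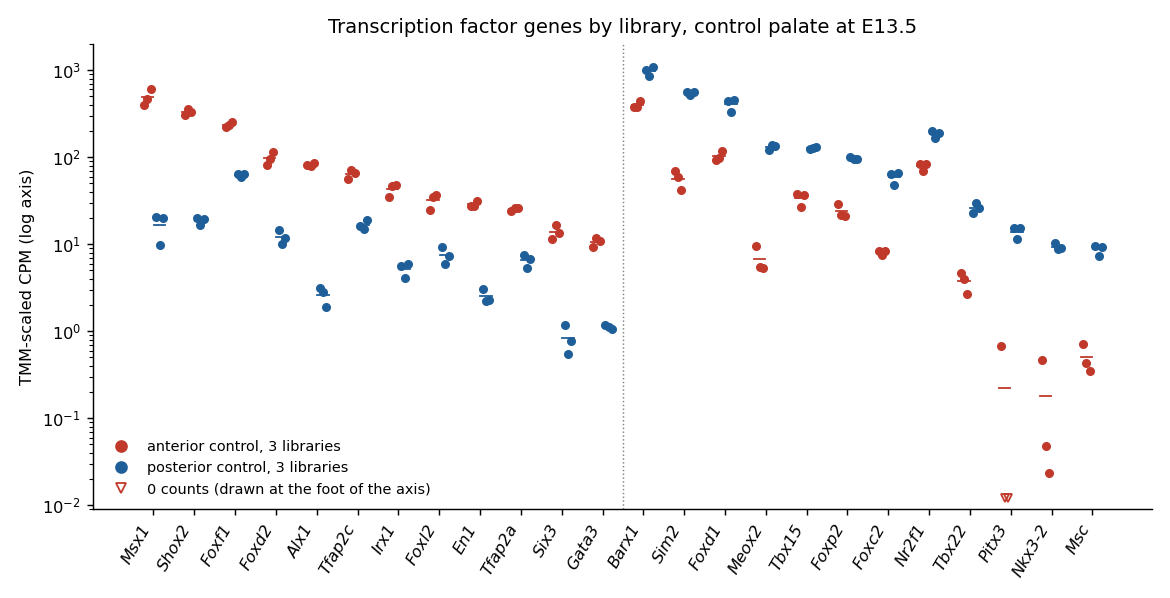
TMM-scaled CPM (vertical log axis) of 24 transcription factor genes in the 3 anterior and 3 posterior control libraries, with a line at each mean. Genes left of the dotted line are higher anteriorly and those right of it posteriorly. No gene shown overlaps between the regions, from Shox2 (304, 359.7 and 331 against 19.8, 16.5 and 19.7 CPM) to Msc (0.718, 0.435 and 0.351 against 9.57, 7.38 and 9.20 CPM).

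Forkhead genes also went both ways. Of 32 tested, 8 were higher anteriorly and 12 posteriorly. Foxf1, a target of Hedgehog signalling in mesenchyme, stood at 224, 232 and 256 CPM anteriorly and 64.9, 59.4 and 64.1 CPM posteriorly, and Foxd2 at 81.99, 95.2 and 116 against 14.5, 10.00 and 11.8 CPM. Foxl2 was 4.25-fold higher anteriorly. Relatives of the same subfamilies lay on the other side. Foxd1 stood at 91.8, 98.05 and 118 CPM anteriorly and 437, 334 and 450.4 CPM posteriorly, and Foxf2, at 314, 334 and 404 against 529.9, 468 and 566 CPM, was 1.49-fold higher posteriorly. Foxc2, a factor of mesenchyme and lymphatic vessels, was at 8.45, 7.57 and 8.36 against 63.8, 47.99 and 66.2 CPM (adjusted p = 1.9e-10). Foxp2, linked to speech and orofacial movement in humans, was 4.06-fold and Foxq1 3.43-fold higher posteriorly.

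Of 12 T-box genes, 3 were higher anteriorly and 6 posteriorly. Without posterior replicate 2 these counts were 1 and 3, and without replicate 1 of either region 1 was higher anteriorly. Tbx2 stood at 456, 532 and 594 against 254, 216 and 264 CPM, 2.16-fold higher anteriorly, while Tbx15 and Tbx18 were 3.77-fold and 2.81-fold higher posteriorly. Tbx1, the gene of the 22q11 deletion syndrome and of palate and pharynx development, stood at 51.5, 60.2 and 71.3 CPM anteriorly and 52.5, 38.05 and 50.5 CPM posteriorly, overlapped and gave no call (adjusted p = 0.1). Among 41 helix-loop-helix genes, 8 were higher anteriorly and 15 posteriorly. Sim2, whose loss in mice causes cleft palate, stood at 69.9, 58.7 and 42.1 CPM anteriorly and 555, 514 and 555 CPM posteriorly (log2 fold change -3.25, SE 0.18, adjusted p = 1.9e-08). Ebf1 and Ebf2 were 2.02-fold and 2.79-fold higher posteriorly. Twist1, a factor of neural crest mesenchyme, at 552, 603 and 699.5 against 784, 704 and 804 CPM, gave no call (adjusted p = 0.067), although its values did not overlap. It was called higher posteriorly by DESeq2, with the 6 controls alone and with the length and GC trend removed.

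Of 71 zinc finger and other patterning factors, 27 were higher anteriorly and 20 posteriorly, with a median log2 fold change of 0.16. The AP-2 genes Tfap2a (23.8, 26.1 and 25.7 against 7.47, 5.35 and 6.74 CPM) and Tfap2c (56.1, 71.3 and 66.4 against 16.3, 14.97 and 19.2 CPM), which act in neural crest and surface ectoderm, did not overlap between the regions. Gata3, needed for jaw and ectodermal organ development, was at 9.29, 11.9 and 10.98 against 1.18, 1.12 and 1.06 CPM. The orphan nuclear receptor genes Nr2f1 and Nr2f2 were 2.36-fold and 1.86-fold higher posteriorly, Runx1 was 1.88-fold and Dach1 2.91-fold higher there. Tfap2a, Tfap2c and Gata3 are also expressed in epithelium, whose marker sum was 1780 to 2231 CPM anteriorly and 1156 to 1274 CPM posteriorly. The part of the epithelium in these calls was not tested.

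**Figure D4:**
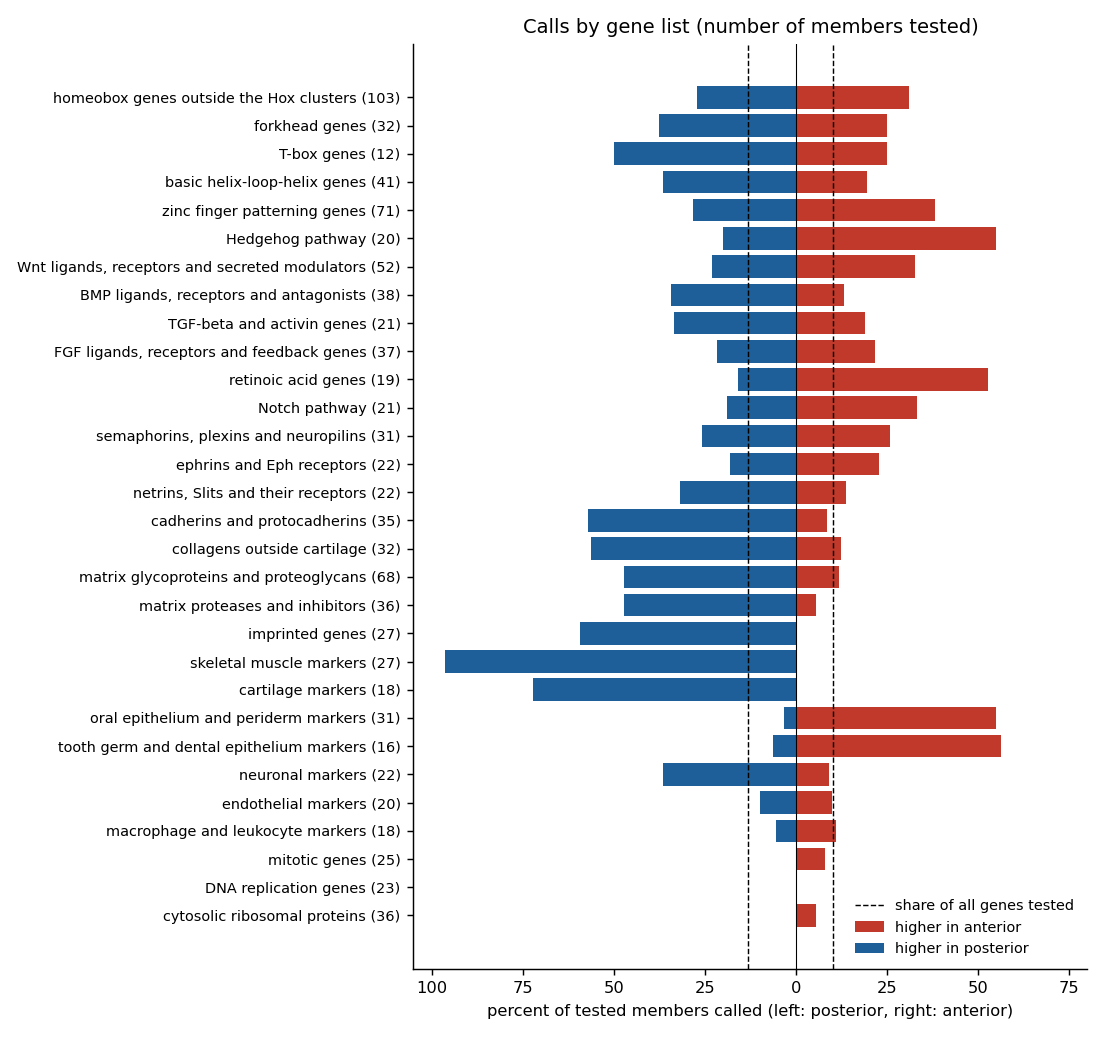
Percent of tested members called higher in the posterior (bars to the left) and in the anterior control palate (bars to the right) for 30 gene lists, with the number tested in brackets. Dashed lines mark the shares over all 15958 genes tested, 13.1% posterior and 10.2% anterior, so skeletal muscle (26 of 27) lies far to the left and the DNA replication genes (0 and 0 of 23) at 0.

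In the Hedgehog pathway, in which Shh from the epithelium signals to the mesenchyme, 11 of 20 genes were higher anteriorly and 4 posteriorly (median log2 fold change 0.24). Gli1, the standard readout of the pathway, stood at 262, 266 and 308 CPM anteriorly and 199, 156 and 171 CPM posteriorly, without overlap. Gas1, a co-receptor, was 1.73-fold higher anteriorly. Against these, the antagonist Hhip (1.72-fold) and the co-receptor Boc (1.32-fold) were higher posteriorly. The list also counts forkhead genes given above, with Foxf1 and Foxd2 higher anteriorly and Foxd1 and Foxf2 posteriorly. Among them were the largest differences of the list in each direction, Foxd2 (log2 fold change 3.01) and Foxd1 (-1.99). The signal transducer Smo, at 441, 462 and 479 CPM anteriorly and 538, 452 and 504 CPM posteriorly, overlapped and gave no call.

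Of 52 Wnt ligands, receptors and secreted modulators, 17 were higher anteriorly and 12 posteriorly. Among ligands, Wnt2 stood at 14.4, 10.9 and 14.5 CPM anteriorly and 3.32, 2.55 and 2.94 CPM posteriorly and Wnt5a, which acts mainly outside the beta-catenin pathway, at 137, 146 and 130.2 against 70.02, 68.5 and 64.6 CPM, whereas Wnt11 and Wnt16 were 4.61-fold and 6.21-fold higher posteriorly. Among modulators, the enhancer Rspo1 was at 102, 93.4 and 104 against 34.4, 30.2 and 29.1 CPM and the decoy Frzb at 258, 276 and 295 against 121, 116 and 122 CPM, both higher anteriorly, and the inhibitor Dkk2 was 1.92-fold higher posteriorly. Ligands and modulators were thus called in both directions. The secreted frizzled-related gene Sfrp2 was high in both regions (1490, 1472 and 1566 CPM anteriorly and 2114, 1684 and 1779 CPM posteriorly) and gave no call (adjusted p = 0.23).

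Targets and feedback genes of Wnt signalling gave 8 calls higher anteriorly and 5 posteriorly of 17. Sp5, a direct target in many tissues, stood at 21.01, 28.3 and 27.5 CPM anteriorly and 0.883, 0.549 and 0.974 CPM posteriorly (log2 fold change 4.98, SE 0.34, adjusted p = 1.5e-07). Lef1, a nuclear mediator that is also a target, was at 55.6, 64.8 and 65.8 against 19.1, 16.5 and 18.7 CPM. Other targets lay on the posterior side: Apcdd1 was at 90.5, 97.4 and 92.6 against 268, 280.3 and 305 CPM and Lgr5, the R-spondin receptor, at 19.4, 21.6 and 16.04 against 52.2, 66.1 and 60.7 CPM. Axin2, the most used readout, stood at 78.4, 83.8 and 76.1 CPM anteriorly and 74.04, 66.7 and 66.6 CPM posteriorly and gave no call (adjusted p = 0.11). In the 250 bases before its start site (RefSeq, GRCm38.p6, chr2:70474673-70474922, plus strand) Sp5 holds the TCF/LEF motif ATCAAAG, searched on both strands, shown in capitals as it reads on the gene's strand. Sp5 was the only match among the 8 of 13 called members found in the promoter table, and 3.72% of 27025 RefSeq genes hold the motif in a window of that length. The sequence is shown because Sp5 had the largest difference of the list.
Sp5: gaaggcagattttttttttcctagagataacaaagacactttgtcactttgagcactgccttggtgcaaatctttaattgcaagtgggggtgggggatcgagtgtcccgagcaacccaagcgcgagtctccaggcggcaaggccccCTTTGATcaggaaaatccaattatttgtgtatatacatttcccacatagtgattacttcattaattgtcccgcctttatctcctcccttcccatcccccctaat

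Of 38 BMP ligands, receptors and antagonists, 5 were higher anteriorly and 13 posteriorly (median -0.20). Bmp6 stood at 55.5, 72.7 and 76.1 CPM anteriorly and 20.4, 15.3 and 18.1 CPM posteriorly, and Bmp3 was 2.09-fold higher posteriorly. The antagonists divided: Fst, which encodes follistatin, was at 34.2, 37.1 and 33.4 against 14.5, 14.2 and 14.3 CPM, while Grem1 was at 1.73, 2.25 and 1.17 against 7.34, 7.50 and 6.65 CPM. Bmp4 and Bmp2 gave no call (adjusted p = 0.48 and 0.32). Of 21 TGF-beta and activin genes, 4 were higher anteriorly (2 without anterior replicate 1, anterior replicate 3 or posterior replicate 2) and 7 posteriorly. Tgfb2 was 2.42-fold higher posteriorly and Tgfb3, the isoform needed for fusion of the shelves, 1.35-fold higher anteriorly. The receptor Tgfbr2 was at 92.2, 93.3 and 78.7 against 142, 146 and 141 CPM, and the latent TGF-beta binding gene Ltbp1 was 1.89-fold higher posteriorly.

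FGF genes divided evenly, with 8 higher anteriorly and 8 posteriorly of 37. The mesenchymal ligand Fgf10 stood at 25.8, 22.1 and 23.3 CPM anteriorly and 9.23, 12.3 and 9.91 CPM posteriorly, and Etv4, a target of FGF signalling, at 42.5, 49.3 and 57.5 against 19.7, 19.4 and 23.8 CPM. Fgf7, a close relative of Fgf10, was at 4.66, 3.67 and 3.79 against 11.8, 11.8 and 10.9 CPM and Fgf18, a ligand in bone and cartilage, 2.23-fold higher posteriorly. Fgf10 and Fgf7 thus lay on opposite sides. The receptors Fgfr1 and Fgfr2 gave no call (adjusted p = 0.065 and 0.49).

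Retinoic acid genes were mostly higher anteriorly, 10 against 3 posteriorly (1 without anterior replicate 3 or posterior replicate 2) of 19 (median log2 fold change 0.49). The anterior calls included enzymes that make retinoic acid, enzymes that remove it and proteins that take up retinol. Of the enzymes that make it, Aldh1a2, named after its values were seen, stood at 158, 156 and 181 CPM anteriorly and 75.7, 61.3 and 69.1 CPM posteriorly. Cyp26b1, a degrading enzyme, stood at 211, 213 and 216 CPM anteriorly and 96.3, 90.2 and 80.8 CPM posteriorly, and Stra6, the receptor for retinol-binding protein, at 36.9, 38.7 and 50.3 against 13.2, 13.7 and 13.8 CPM. Dhrs3, which turns retinaldehyde back to retinol, was 1.95-fold and the receptor and target Rarb 2.03-fold higher anteriorly. Rxrg, a receptor gene also expressed in muscle, was 6.63-fold higher posteriorly. The other posterior calls were Rdh10, a gene of retinoic acid synthesis (log2 fold change -0.32, adjusted p = 0.025), and Rbp4 (-1.02, adjusted p = 0.015). Rarg and Rxra gave no call, at adjusted p = 0.83 and 0.31.

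Of 21 Notch pathway genes 7 were higher anteriorly, including the target Hey1 (30.6, 35.2 and 35.5 against 12.3, 11.98 and 12.99 CPM) and the ligand Jag1 (1.48-fold), and 4 were higher posteriorly (2 without anterior replicate 3). Among the latter was Dlk1, an imprinted gene for a Notch ligand relative, at 539.6, 564 and 606 CPM anteriorly and 1616, 1304 and 1465 CPM posteriorly. Of 17 IGF and PDGF genes 3 were higher anteriorly and 7 posteriorly. Pdgfa, the ligand, was 1.51-fold higher anteriorly, and Pdgfra, its receptor, 1.56-fold higher posteriorly. Igf1 was 1.58-fold higher posteriorly. Of 39 chemokine, cytokine, neurotrophin and endothelin genes 11 were higher anteriorly and 5 posteriorly (8 without anterior tamoxifen replicate 2). The posterior count lay near the share over all genes tested, 13.1%. Cxcl14 stood at 24.8, 37.3 and 27.5 against 9.40, 6.88 and 6.09 CPM and Cxcl5 at 9.83, 9.19 and 8.78 against 0.904, 0.907 and 1.20 CPM, while the alarmin Il33 was 7.93-fold higher posteriorly. The neurotrophin gene Bdnf was 2.01-fold higher posteriorly.

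Guidance genes, which steer axons and also migrating mesenchyme, were called on both sides. Of 31 semaphorin, plexin and neuropilin genes, 8 were higher anteriorly and 8 posteriorly, for example Sema3e (29.4, 31.1 and 23.4 against 10.2, 11.5 and 9.26 CPM) and Sema5b (17.9, 14.3 and 16.9 against 51.1, 43.5 and 49.4 CPM). Of 22 netrin and Slit genes and receptors 3 were higher anteriorly and 7 posteriorly. The ligand Slit2 stood at 98.3, 92.8 and 78.2 CPM anteriorly and 45.2, 44.7 and 47.1 CPM posteriorly, whereas its receptors Robo1 and Robo2 were 1.91-fold and 2.20-fold higher posteriorly. Ntn1, which encodes netrin-1, was at 54.4, 61.1 and 64.02 against 159, 165 and 184 CPM, and its receptor gene Dcc was 2.90-fold higher posteriorly, on the same side. Of 22 ephrin and Eph receptor genes 5 were higher anteriorly (3 without posterior replicate 2) and 4 posteriorly, and Epha3 stood at 94.8, 104 and 68.8 against 203, 261 and 220.3 CPM.

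Cadherin genes, which hold like cells together, were mostly higher posteriorly. Of 35 cadherins and protocadherins, 20 were higher posteriorly and 3 anteriorly, with a median log2 fold change of -0.60. Cdh4, R-cadherin, stood at 9.41, 7.16 and 6.37 CPM anteriorly and 110.3, 109 and 112 CPM posteriorly (log2 fold change -3.85, SE 0.15, adjusted p = 1.9e-10), and the posterior values lay close together. Cdh18 was at 1.68, 1.57 and 1.43 against 11.2, 13.9 and 13.2 CPM and Cdh20 at 0.223, 0.193 and 0.258 against 5.68, 5.71 and 4.50 CPM. Cdh15, the cadherin of muscle, was 13.1-fold higher, beside muscle sums of 25.5 to 54.4 and 1060 to 1221 CPM. Cdh11, the main cadherin of mesenchyme, was at 543, 498 and 439 CPM anteriorly and 509.6, 608 and 537 CPM posteriorly and gave no call (adjusted p = 0.21). With the length and GC trend removed, 17 of the list were higher posteriorly, with a median of -0.30.

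Genes of the extracellular matrix were called mostly in the posterior direction. Of 32 collagen genes outside cartilage 18 were higher posteriorly and 4 anteriorly, and of 68 matrix glycoproteins and proteoglycans 32 and 8, the latter 5 without posterior replicate 3 (medians -0.51 and -0.48). Col12a1, a collagen of dense fibrous tissue, stood at 236, 236 and 190.0 CPM anteriorly and 819.6, 1037 and 829 CPM posteriorly, and Col8a1 at 104, 75.1 and 78.7 against 255, 269 and 236 CPM. Col1a1, the main collagen of bone and fibrous tissue, was at 3622, 3759 and 4101 against 9359, 8292 and 7353 CPM, with an adjusted p of 0.029, and its call was lost without each anterior library in turn and without posterior replicate 1 or 2. The 4 collagens on the anterior side included Col17a1 (1.89-fold) and Col7a1 (1.52-fold), which anchor epithelium to its basement membrane.

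Among glycoproteins, Thbs4 was at 2.35, 2.15 and 2.15 against 40.8, 40.9 and 40.7 CPM, Aspn, which encodes asporin, at 47.3, 44.2 and 41.99 against 91.5, 108 and 97.6 CPM and Cthrc1 at 19.7, 19.3 and 18.1 against 54.9, 60.5 and 63.03 CPM. Cd44, the hyaluronan receptor, went the other way, at 39.4, 39.9 and 37.7 CPM anteriorly and 19.3, 20.6 and 16.6 CPM posteriorly. Fn1, which encodes fibronectin, stood at 1300, 1237 and 1125 CPM anteriorly and 1093, 1362 and 1202 CPM posteriorly and gave no call (adjusted p = 0.99). Of 36 matrix proteases and inhibitors, 17 were higher posteriorly and 2 anteriorly (1 without posterior replicate 1 or 3). Adamts9 stood at 26.4, 21.9 and 22.2 against 67.9, 75.3 and 75.3 CPM and the inhibitor Timp3 was 1.81-fold higher posteriorly, whereas Mmp2 and Mmp14 gave no call (adjusted p = 0.93 and 0.93). Beside these groups, marker sums of cartilage, tendon and muscle were higher in each posterior library. Cartilage sums were 938 to 995 CPM anteriorly and 2983 to 3255 CPM posteriorly. Tendon sums were 124 to 144 and 216 to 534 CPM, and muscle sums 25.5 to 54.4 and 1060 to 1221 CPM. The osteoblast sum, 4372 to 4858 and 7874 to 9996 CPM, was made up mostly of Col1a1, itself among the matrix calls. The rest of that sum was lower in each posterior library. Other members are also shared, such as Thbs4 by the tendon and glycoprotein lists. The part of these tissues in the matrix calls was not tested.

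Ion channel genes gave 6 calls higher anteriorly and 18 posteriorly of 45. Kcnj2, the potassium channel of Andersen-Tawil syndrome, in which cleft palate occurs, stood at 34.2, 27.9 and 22.9 CPM anteriorly and 13.1, 10.6 and 10.8 CPM posteriorly, and Cacna2d1, a calcium channel subunit, at 25.5, 25.1 and 20.5 against 52.3, 59.5 and 51.9 CPM. The calcium channel gene Cacna1g and the gap junction gene Gja1 gave no call (adjusted p = 0.42 and 0.86). Of 16 transmitter genes 3 were higher anteriorly and 7 posteriorly, the latter including the acetylcholine receptor genes of muscle. Gad1, which makes GABA and whose loss causes cleft palate in mice, was low, at 1.11, 1.33 and 0.609 against 0.337, 0.382 and 0.497 CPM (adjusted p = 0.017). Its call was lost without anterior replicate 1 or 2 and without posterior replicate 1 or 2.

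Genes whose human counterparts are mutated in clefts were called on both sides, 15 higher anteriorly and 10 posteriorly of 42 (median log2 fold change 0.12), and many of them are patterning genes that other lists hold too. Eya1, mutated in branchio-oto-renal syndrome, stood at 67.5, 68.8 and 67.9 CPM anteriorly and 29.9, 31.9 and 30.6 CPM posteriorly, and the regions did not overlap. Pax7, a gene of muscle precursors and neural crest, was 16.6-fold higher posteriorly, and Flna and Fgfr1 gave no call (adjusted p = 0.11 and 0.065).

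Imprinted genes, which are expressed from the allele of 1 parent and many of which control growth, were called in the posterior direction by edgeR: 16 of 27 were higher posteriorly and 0 anteriorly (median log2 fold change -0.40). With the length and GC trend removed, 14 were higher posteriorly and 2 anteriorly, and DESeq2 called 17 and 1. Magel2, of the Prader-Willi region, stood at 5.25, 4.71 and 3.84 CPM anteriorly and 30.3, 35.5 and 44.1 CPM posteriorly, and Ndn, of the same region, at 216, 224 and 250.2 against 349, 349.6 and 379.8 CPM. Igf2 was at 2840, 2867 and 2954 against 4532, 4258 and 4222 CPM and the noncoding RNA gene Rian, which shares a cluster with Dlk1, at 194, 159 and 153 against 263, 304 and 299.8 CPM. None of the 4 overlapped between the regions. Gnas and Grb10 gave no call (adjusted p = 0.62 and 0.057).

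Few genes of cell division were called. Of 25 mitotic genes 2 were higher anteriorly and 0 posteriorly (0 and 0 without anterior replicate 3 or posterior replicate 1 or 2), and of 23 DNA replication genes 0 and 0 (edgeR). With the length and GC trend removed, 5 and 1 were higher anteriorly, and DESeq2 called 3 and 1. The mitotic sum was 2657 to 2736 CPM anteriorly and 2598 to 2727 CPM posteriorly. In contrast, 7 of 20 regulators of the G1 phase were higher posteriorly (4 without posterior replicate 2) and 0 anteriorly, with Ccnd1, cyclin D1, at 124, 125 and 119 against 279, 279.9 and 272 CPM and Cdkn1a, which encodes the inhibitor p21, at 12.8, 13.9 and 12.6 against 32.6, 26.1 and 29.9 CPM. Cyclin D1 drives the cycle and p21 restrains it, and both lay on the same side. Cytosolic ribosomal protein genes gave 2 anterior calls of 36 (median 0.20), against 10 with DESeq2, 10 without anterior replicate 2 and 0 without anterior replicate 3 or posterior replicate 2. Of 18 hypoxia and glycolysis genes 5 were higher anteriorly, such as Slc2a1 (1.40-fold), and 1 posteriorly. Without posterior replicate 1 none of the 5 was called, without any anterior replicate or posterior replicate 3 a single one was, and without posterior replicate 2, 3 were. The posterior count was 5 without anterior tamoxifen replicate 2 and 4 with the 6 controls alone.

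Near on-off differences were rare. Genes with a mean of at least 5 CPM numbered 11362 in the anterior and 11402 in the posterior palate. Of these, 1 on the anterior and 16 on the posterior side were under 0.5 CPM in each library of the other region. The anterior gene was Ambn. Among the posterior genes were Chrng, Casq2, Sln, Lmod3, Mylk4, Alpk3 and Hfe2, all known from muscle, and Nkx3-2. Crh, which encodes corticotropin-releasing hormone, was also among them, at 0.248, 0 and 0.117 CPM anteriorly and 5.03, 6.40 and 10.9 CPM posteriorly, as was Prokr2, a neuropeptide receptor gene (0.471, 0.145 and 0.141 against 5.72, 6.92 and 7.15 CPM). Crh varied more than 2-fold between posterior libraries, and each of them was far above the anterior values. With a limit of 1 CPM in place of 0.5, 3 anterior and 39 posterior genes met the rule.

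The regional difference was also taken between the anterior and posterior libraries of the tamoxifen group, in the same fit, so that both contrasts share its filter, scaling and estimate of spread but no library mean. Of the 3717 genes called in controls, 3401 (91.5%) had the same direction and 1984 (53.4%) were called in that direction, where 17.8% of all genes were called (7.60% higher anteriorly and 10.2% posteriorly). The 1984 were 69.7% of the 2846 genes called under tamoxifen. Among genes called at more than 4-fold in controls, 403 of 461 were called in the same direction. Called in the opposite direction were 6 genes. Cdh4 had a log2 fold change of -4.46 under tamoxifen against -3.85 in controls, Alx1 4.99 against 4.98, and Sim2 -3.15 against -3.25. In the plot of both contrasts, 91.5% of these genes lie on the same side of 0 in both.

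**Figure D5:**
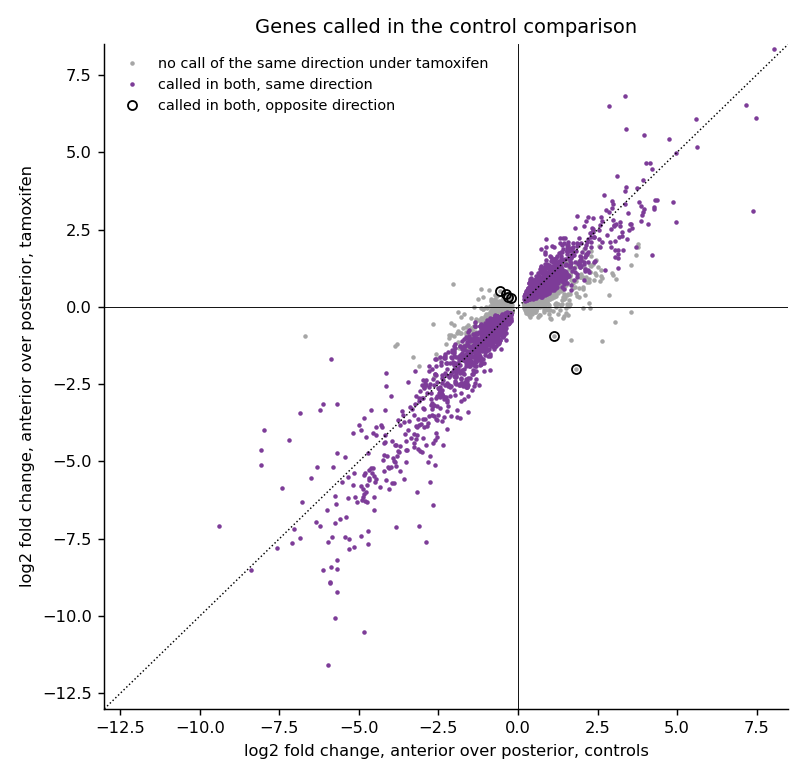
Log2 fold change, anterior over posterior, in controls (horizontal axis) and under tamoxifen (vertical axis) for the 3717 genes called in controls, with the line of equal change dotted. Purple points are the 1984 genes called in the same direction in both, and 6 circled genes were called in opposite directions.

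The test of a difference between the contrasts called 0 genes (0%) with edgeR (2110 at an unadjusted p under 0.05), 0 with limma-voom and 183 with DESeq2. The smallest adjusted p among genes called in controls at 5 CPM or more was 0.081. Among these, Wnt5a had a log2 fold change of 1.02 in controls and 1.62 under tamoxifen, where it stood at 244, 251 and 246 CPM anteriorly and 73.4, 81.95 and 85.4 CPM posteriorly. For Spock1, a matrix proteoglycan gene, the values were 1.91 and 0.30, for Foxc2 -2.87 and -3.86, for Cthrc1 -1.64 and -2.32, and for Naaa, a lysosomal amidase gene, 1.68 and 0.72. A p that misses the threshold does not show that the contrasts are alike.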

How the data were processed

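RNA-seq of dissected palatal shelf was available for 12 libraries, 3 per group. The deposited files hold a raw count per gene symbol and library for 24391 symbols, not normalized. HISAT2, StringTie and genome build mm9 are named, per the submitters' processing notes. Of versions, counting program, annotation and strandedness, nothing is given in the sources used here. Among low counts, 57.1 to 60.1% per library were even, so mates of a read pair may have been counted separately. Groups came from the sample titles.

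Tests used R 4.3.3 with edgeR 4.0.16. After filterByExpr by group (15958 genes) and TMM scaling, a robust quasi-likelihood fit had 1 mean per group over 12 libraries (8 residual degrees of freedom). Contrasts were anterior minus posterior in controls, the same under tamoxifen, and their difference. A call is an adjusted p under 0.05 (Benjamini-Hochberg, all genes tested), by edgeR where no tool is named. Levels are TMM-scaled CPM, errors are SD over 3 libraries or the SE of the log2 fold change. Totals were 39.4 M to 73.0 M counts. Replicates differed by more than counting noise in each pair (lowest chi-square per degree of freedom 10.3), so each library was counted once.

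The gene lists, the rule for named genes and the alternatives were chosen with earlier results of these data known. The rule took the regional markers and lists, the 15 largest folds per direction among called genes without overlap at 5 CPM or more, up to 5 called members per list and direction, up to 3 with the largest fold and up to 2 without a call, 8 restricted genes per direction and 6 genes of the interaction. Some genes that met the rule are left out here. Alternatives were DESeq2 1.42.0, limma-voom (limma 3.58.1), other scalings, filters and thresholds, counts divided by 2, the replicate number as a block, removal of a length and GC trend, the 6 controls alone and leaving out each library. The steps were tested on simulated data. Promoters came from RefSeq (GRCm38.p6), a different build from that of the counts, and were matched by symbol.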

Additional observations from a re-analysis of the deposited data

How the results depend on the processing

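The number of genes called between the regions in controls (3717) lay between 3571 and 4296 under other tests, scalings and filters, and 3714 of the calls remained with DESeq2. It was 955 when a fold of at least 1.5 was tested (359 higher anteriorly, 596 posteriorly) and 2194 at an adjusted p under 0.01 (873 and 1321). Leaving out 1 library gave 2483 to 4342 calls, 1010 to 1655 of them higher anteriorly (1010 without posterior replicate 2) and 1473 to 2687 posteriorly, and 2438 to 3640 of the 3717 remained. The share of calls on the anterior side was 44.0%, 53.0% with library totals alone and 54.4% with the length and GC trend removed, which reversed 1 call. Spearman's rho of the fold change across genes was -0.30 with length and 0.19 with GC content. The tamoxifen calls lay between 2090 and 3089, and the interaction calls between 0 and 6, without 1 library. DESeq2 called 183 in the interaction. Restricted genes went from 1 to 3 and from 16 to 39 with a limit of 1 CPM. Of 26 named genes without a call, 11 were called in at least 1 alternative, among them Fgfr1 and Runx2 with DESeq2. No scaling moved the median log2 fold change of all genes by more than 0.1. With the replicate number as a block, 3711 genes were called. Deviations of same-numbered libraries correlated at -0.18, 0.13 and 0.24, and not every library correlated best with its own number. These deviations were taken from means of 3 libraries and depend on each other, so they cannot decide whether the samples are paired. The labels do not state a pairing, and the numbers were not taken to pair the samples.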
